A study of Mus musculus with 12 samples.

Results

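The integrated stress response and its serine branch were followed through 10 genes. They were Atf4, Atf3, Ddit3, Trib3, Sesn2, Asns, Phgdh, Psat1, Shmt2 and Mthfd2, taken by symbol from a table of 49585 genes in which each symbol had a row. The cells were labelled RAW264.7, a mouse macrophage-like line, and all of them were given LPS and mouse interferon-γ at 10 ng/mL each. Mdivi-1, which the submitters describe as a Drp1 inhibitor (Drp1 is the GTPase that divides mitochondria), was added to some cultures at 50 µM together with the stimuli. The 4 groups were 96 h with Mdivi-1, 96 h with the stimuli alone, 24 h with Mdivi-1 and 24 h with the stimuli alone, with 3 libraries each. The labels give 1 line and 1 dose and name no vehicle for the cells without Mdivi-1, and unstimulated cells were not analysed here.

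In the integrated stress response, kinases that sense unfolded protein, amino acid shortage, viral RNA or heme shortage phosphorylate the translation factor eIF2. Most translation then slows, while the mRNA of Atf4 is translated better, so that ATF4 protein can rise with little change of its mRNA. ATF4 switches on further factors, amino acid enzymes and transporters, and in many cells the enzymes that make serine from a glycolytic intermediate and pass its carbon through mitochondrial folate. Defects of mitochondria are known to feed into the same response.

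The libraries differed in what RNA they held. Both 24 h libraries numbered 3 held almost no messenger RNA: the 10 genes lay between 0.0479 and 1.02 TPM in the one with Mdivi-1 and between 0.173 and 2.28 TPM in the one without. They are left out of the means and tests, so n is 3 per group at 96 h and 2 per group at 24 h. Genes outside the structured, mitochondrial and satellite-like classes took 7.0% to 11.3% of the TPM total at 96 h and 40.2% to 48.4% in the 24 h libraries used. Odorant and pheromone receptor genes, which serve as a measure of background, had a median of 1.27 to 1.85 TPM at 96 h with Mdivi-1 and of 0.498 to 2.69 TPM at 96 h without it, and of 0 in the 24 h libraries used. As a check of the macrophage label, 9 macrophage markers summed to 253 to 391 TPM at 96 h and to 16988 to 19347 TPM in the 24 h libraries used, and each of the 9 was lower in every 96 h library. At 96 h, 4 of them, Lyz2 (158 to 248 TPM), Cd14, Cd68 and Spi1, exceeded the 95th percentile of the receptor genes in all 6 libraries, and the other 5, Adgre1, Fcgr1, Ptprc, Csf1r and Mertk, did so in 0 to 4. Fibroblast markers summed to 57.5 and 78.9 TPM with Mdivi-1 at 24 h, against 276 and 301 TPM without it, and to 2.91 to 13.4 TPM at 96 h. The part of these differences in the results was not tested. Time goes with the kind of library, so both cannot be told apart, and in bulk RNA fewer cells of a type cannot be told apart from less RNA per cell.

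**Figure D1:**
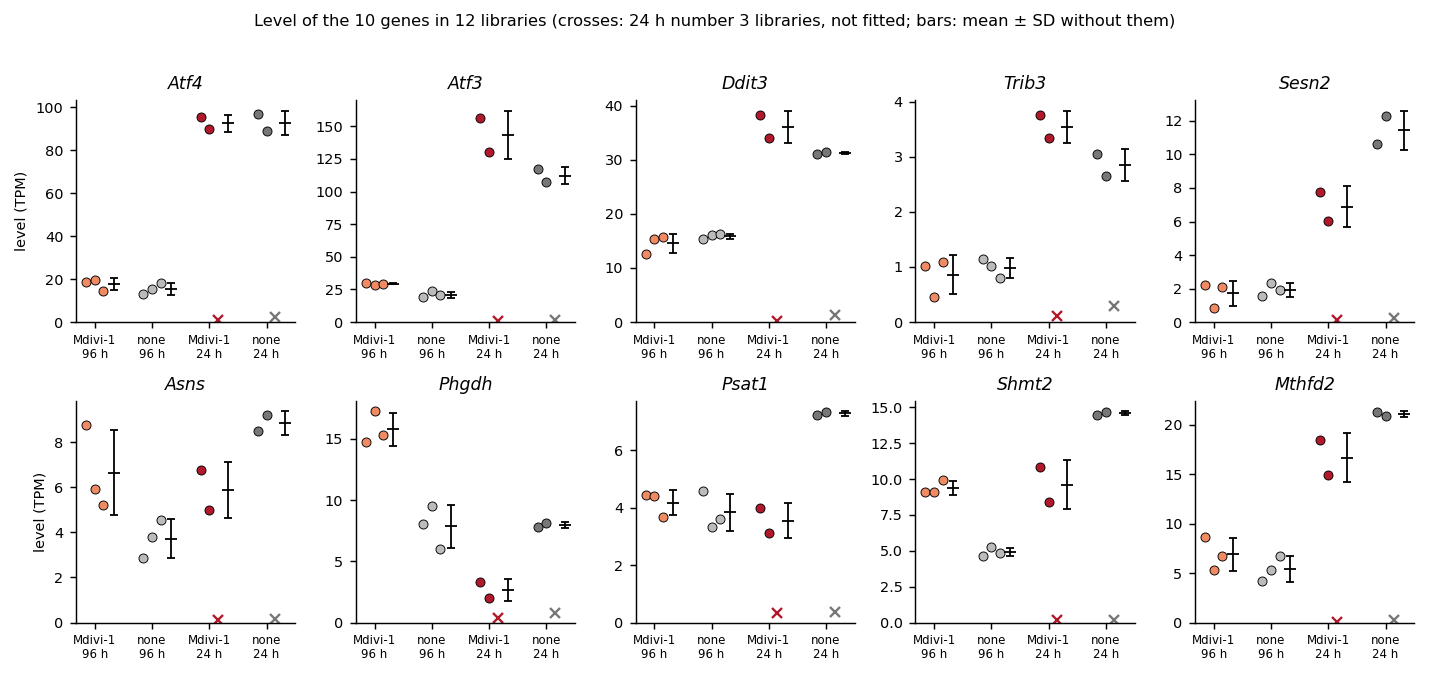
Level in TPM of each of the 10 genes in every library (points, on axes that start at 0), with the group mean and SD beside them, for 96 h and 24 h with and without Mdivi-1. The 24 h libraries numbered 3 (crosses) lie at the bottom of every panel, at 2.28 TPM or less, and the Mdivi-1 points of Asns, Phgdh and Shmt2 lie above those without Mdivi-1 at 96 h and below them at 24 h.

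At 96 h the largest differences among the 10 genes were those of Phgdh, Shmt2 and Asns, enzymes of serine, one-carbon and asparagine synthesis, all with higher levels under Mdivi-1. Shmt2 rose with Mdivi-1 by 0.81 ± 0.13 on the log2 scale of TPM + 1 (SE, n = 3 per group, limma adjusted p = 0.0451). It was the only one of the 10 to pass the threshold of 0.05, where 0.143% of the 19631 genes tested did (0.102% higher and 0.0408% lower). For 4 members, Phgdh, Shmt2, Asns and Atf3, every library with Mdivi-1 lay above every library without it, as it did for 2.13% of all genes. No member lay wholly below, as 4.05% of all genes did, and the groups overlapped for the other 6. The median member difference was 0.24, against -0.06 over all genes tested.

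At 24 h the same 3 enzymes had lower levels with Mdivi-1. Phgdh fell with Mdivi-1 by 1.32 ± 0.22 (log2 of TPM + 1, SE, n = 2 per group, limma adjusted p = 0.0485), the only call among the 10, where 0.295% of all genes were called and all 58 of those were lower. No member was called higher by limma. At an unadjusted p under 0.05, Atf3 was higher, as were 0.0968% of all genes, and Phgdh, Psat1, Sesn2 and Shmt2 were lower, as were 6.04% (0.168% and 11% of the 10728 tested genes that averaged at least 1 TPM at 24 h, as all 10 members did). Without overlap, 6 members were lower, namely Phgdh, Psat1, Sesn2, Shmt2, Asns and Mthfd2, which was near the background, since 40.4% of all genes were, and 67.3% of those 10728. In the other direction Atf3, Ddit3 and Trib3 were higher without overlap, 3 of 10 members where 2.94% of all genes and 4.05% of the 10728 were, and Atf4 overlapped. The median member difference was -0.43, against -0.21 over those 10728 genes and -0.06 over all genes tested.

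The Mdivi-1 effect at 96 h exceeded that at 24 h for Phgdh by 2.26 ± 0.29 (log2, SE, limma adjusted p = 0.0252) and for Shmt2 by 1.38 ± 0.20 (adjusted p = 0.0351). These were 2 of 10 members, where 0.122% of all genes were called in either direction, 0.112% in this one and 0.0102% in the other. Asns, at 1.21 ± 0.33 (adjusted p = 0.420), and Psat1, at 0.97 ± 0.26 (adjusted p = 0.389), did not pass. The labels do not say that the libraries of a group come from separate cultures, so the p-values reflect no more than how these libraries scattered.

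These calls were close to the threshold and did not hold in every fit. When 1 library at a time was left out, the Phgdh call at 24 h was kept without any 1 of the 3 libraries of 96 h without Mdivi-1 (adjusted p = 0.0143 to 0.0407) and lost without each of the other 7 (0.0675 to 0.695); in limma the Shmt2 call at 96 h was kept only without library 3 of 96 h without Mdivi-1 (0.0246) and lost without each of the other 9 (0.0605 to 0.165). For the difference of effects, the Phgdh call was kept without library 3 of 96 h with Mdivi-1 or any 1 of the 3 of 96 h without it (limma adjusted p = 0.0179 to 0.0429) and lost without each of the other 6 (0.0636 to 0.264). The Shmt2 call was kept there without library 1 or 3 of 96 h without Mdivi-1 (0.0292 and 0.0397) and lost without each of the other 8 (0.0586 to 0.404). Among 11 other alternatives, 8 ended the Phgdh call at 24 h and 8 the Shmt2 call at 96 h, as given under the dependence on processing. The sign of all 4 called differences was the same in every alternative run.

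**Figure D2:**
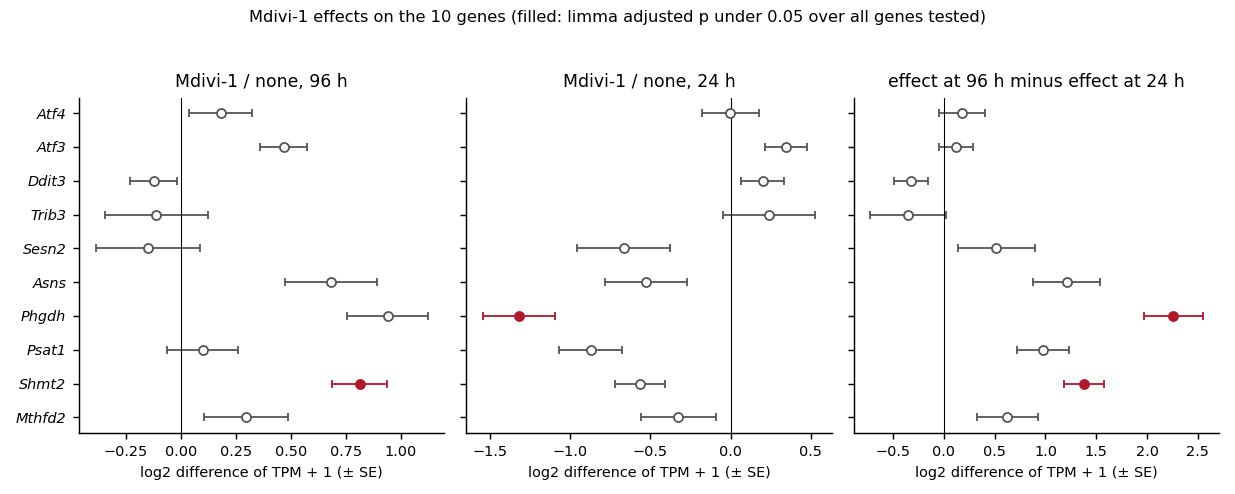
Log2 difference of TPM + 1 with its SE for the 10 genes, for Mdivi-1 over none at 96 h (left), at 24 h (middle) and for the effect at 96 h minus that at 24 h (right); filled points passed a limma adjusted p under 0.05 over all genes. Shmt2 is filled at 96 h (0.81), Phgdh at 24 h (-1.32) and both in the difference (1.38 and 2.26), while Atf4 lies at 0.18 at 96 h and next to 0 at 24 h.

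Among the factors, Atf4 (ENSMUSG00000042406), the central activator of the response, was at 18.8, 19.7 and 14.6 TPM in the 96 h libraries with Mdivi-1, against 13, 15.2 and 18.4 TPM without it. At 24 h it was at 95.3 and 89.8 TPM with Mdivi-1, against 96.6 and 88.7 TPM without it. The groups overlapped at both times, and the differences were 0.18 ± 0.14 at 96 h and -0.00095 ± 0.17 at 24 h (log2, SE; limma adjusted p = 1 for both). Since ATF4 is set largely by translation, these mRNA levels do not measure the protein. The sign at 24 h, next to 0, was positive after rescaling over nuclear genes (0.19), after background subtraction (0.18) and with median-of-ratios scaling (0.24).

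Atf3 (ENSMUSG00000026628), a stress-induced factor that ATF4 can switch on and that restrains inflammatory genes in macrophages, was the member with the highest mean level in all 4 groups. It was at 29.8, 28.8 and 29.4 TPM with Mdivi-1 at 96 h, against 18.9, 23.6 and 20.4 TPM without it. At 24 h the levels were 156 and 130.5 TPM with Mdivi-1, against 117 and 107 TPM without it. The Mdivi-1 libraries were thus the higher ones at both times without overlap, and neither difference passed the test (0.47 ± 0.11, limma adjusted p = 0.202 at 96 h, and 0.35 ± 0.13, adjusted p = 0.609 at 24 h). Ddit3 (ENSMUSG00000025408) codes for CHOP, a factor linked to cell death under lasting stress. It was at 12.6, 15.4 and 15.7 TPM with Mdivi-1 at 96 h, against 15.3, 16.1 and 16.2 TPM without it, and at 38.2 and 34.0 TPM with Mdivi-1 at 24 h, against 31.1 and 31.4 TPM without it. The ranges overlapped at 96 h (-0.12 ± 0.11) and stood apart at 24 h (0.20 ± 0.13), with a limma adjusted p of 1 for both.

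Of the 2 restraining genes, Trib3 (ENSMUSG00000032715) codes for a pseudokinase that binds ATF4 and holds it back. It was at 1.03, 0.449 and 1.09 TPM with Mdivi-1 at 96 h, against 1.14, 1.01 and 0.794 TPM without it. At 24 h it was at 3.75 and 3.34 TPM with Mdivi-1, against 3.05 and 2.64 TPM without it. No 96 h value of Trib3 exceeded the receptor percentile of its library, so its 96 h levels are not separable from background, and the differences were -0.11 ± 0.23 at 96 h and 0.24 ± 0.29 at 24 h (limma adjusted p = 1 for both). Sesn2 (ENSMUSG00000028893), a leucine-sensing brake on mTORC1, was at 2.20, 0.823 and 2.10 TPM with Mdivi-1 at 96 h, against 1.54, 2.36 and 1.90 TPM without it. At 24 h the levels were 7.73 and 6.01 TPM with Mdivi-1, against 10.6 and 12.3 TPM without it. Sesn2 was thus lower with Mdivi-1 in both 24 h libraries (-0.67 ± 0.29, limma adjusted p = 0.784) and exceeded the receptor percentile in 1 of the 6 libraries of 96 h. Without library 2 of 96 h with Mdivi-1, the signs at 96 h turned to 0.06 for Trib3 and 0.11 for Sesn2.

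Asns (ENSMUSG00000029752), asparagine synthetase, is the classical ATF4 target of amino acid shortage. Its 96 h levels were 8.78, 5.93 and 5.21 TPM with Mdivi-1, against 2.84, 3.78 and 4.54 TPM without it. At 24 h they were 6.77 and 5.0 TPM with Mdivi-1, against 8.48 and 9.22 TPM without it. The Mdivi-1 libraries were all higher at 96 h (0.68 ± 0.21, limma adjusted p = 0.495) and all lower at 24 h (-0.53 ± 0.26, adjusted p = 0.902), and neither difference passed the test. In libraries 1 and 2 of 96 h without Mdivi-1, Asns did not exceed the receptor percentile.

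Phgdh and Psat1 carry out successive steps of serine synthesis. Phgdh (ENSMUSG00000053398), the dehydrogenase of the first step, was at 14.7, 17.3 and 15.3 TPM with Mdivi-1 at 96 h, against 8.01, 9.53 and 5.98 TPM without it. Its 24 h levels were 3.31 and 2.0 TPM with Mdivi-1, against 7.77 and 8.16 TPM without it. Both comparisons were free of overlap, in opposite directions. The 96 h difference was 0.94 ± 0.18 (limma adjusted p = 0.112), and it passed with a minimum mean of 5 TPM (adjusted p = 0.0476), with median-of-ratios scaling (0.0326) and without library 3 of the group without Mdivi-1 (0.0458). After subtraction of the receptor background it was 1.19 (adjusted p = 0.0556).

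Psat1 (ENSMUSG00000024640), the aminotransferase of the next step, was at 4.42, 4.41 and 3.66 TPM with Mdivi-1 at 96 h, against 4.57, 3.34 and 3.60 TPM without it. At 24 h it was at 3.98 and 3.11 TPM with Mdivi-1, against 7.23 and 7.35 TPM without it. Psat1 shared the low Mdivi-1 values of Phgdh at 24 h (-0.87 ± 0.20, limma adjusted p = 0.128), while at 96 h its groups overlapped (0.10 ± 0.16, adjusted p = 1). It did not exceed the receptor percentile in 3 of the 6 libraries of 96 h, 1 with Mdivi-1 and 2 without.

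Shmt2 and Mthfd2 work in mitochondria, where they pass a carbon of serine to folate and oxidise it. Shmt2 (ENSMUSG00000025403), serine hydroxymethyltransferase, was at 9.11, 9.10 and 9.93 TPM with Mdivi-1 at 96 h, against 4.64, 5.23 and 4.86 TPM without it. Its 24 h levels were 10.8 and 8.42 TPM with Mdivi-1, against 14.5 and 14.7 TPM without it. Shmt2 was thus without overlap higher with Mdivi-1 at 96 h and lower at 24 h, where the difference of -0.56 ± 0.15 did not pass (limma adjusted p = 0.244). In library 1 of 96 h without Mdivi-1 the receptor percentile was 6.52 TPM, above its Shmt2 value, and the 96 h difference was larger after background subtraction, at 1.26.

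Mthfd2 (ENSMUSG00000005667), the methylenetetrahydrofolate dehydrogenase that is prominent in growing cells, was at 8.60, 5.29 and 6.75 TPM with Mdivi-1 at 96 h, against 4.18, 5.31 and 6.73 TPM without it. At 24 h it was at 18.4 and 14.9 TPM with Mdivi-1, against 21.3 and 20.8 TPM without it. The 96 h ranges overlapped (0.30 ± 0.19) and the 24 h ranges did not (-0.33 ± 0.23), with a limma adjusted p of 1 for both. Of the related enzymes that could share reads with these genes, cytosolic Shmt1 was at 0.573 to 1.54 TPM at 96 h with Mdivi-1 and at 0.553 to 2.88 TPM without it, and Mthfd2l did not exceed 1.3 TPM in any library. Mthfd1l, the next mitochondrial folate enzyme, was at 2.21, 2.87 and 2.39 TPM with Mdivi-1 at 96 h, against 1.31, 1.36 and 2.28 TPM without it, and at 2.88 and 2.25 TPM with Mdivi-1 at 24 h, against 5.09 and 5.19 TPM without it. Mthfd1l was thus lower with Mdivi-1 in both 24 h libraries, and its groups overlapped at 96 h.

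The fit of the 24 h libraries alone, whose spread is not shared with 96 h, called 6 members where 21.8% of 11105 genes were called. Atf3 was higher with Mdivi-1 (0.666% of genes were called higher), and Phgdh, Psat1, Sesn2, Shmt2 and Asns were lower (21.2% were called lower). Most genes lay below 0 in that fit, with a median of -0.22, and the share of the TPM total in structured RNA was higher with Mdivi-1 at 24 h (49.6% and 53.1%, against 46.4% and 46.7%). With median-of-ratios scaling of the same libraries, a setting chosen with the data known that brings this median to -0.01, 5 members were called where 12% of genes were. Atf3 (0.58 ± 0.08, adjusted p = 0.00600) and Ddit3 (0.43 ± 0.06, 0.00745) were higher with Mdivi-1, as were 3.53% of genes. Phgdh (-1.13 ± 0.15, 0.00600), Psat1 (-0.67 ± 0.10, 0.00803) and Sesn2 (-0.45 ± 0.10, 0.0362) were lower, as were 8.47%. Called in both limma fits of these 4 libraries were Atf3, higher with Mdivi-1, and Phgdh, Psat1 and Sesn2, lower. Psph, the phosphatase of the last step of serine synthesis, is not among the 10 and is named with its value known; it was at -0.19 ± 0.31 at 24 h in the 10 libraries (adjusted p = 1). In the 96 h libraries alone limma called no gene, with 433 of 23458 at an unadjusted p under 0.05, 4 of them members (Asns, Atf3, Phgdh and Shmt2).

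Set against Atf4 in the same library, which takes out a common scale apart from the pseudocount, members differed in direction at 24 h. Atf4 itself differed by -0.00095 at 24 h (log2). The 24 h ratio differences therefore repeat those on TPM, with Phgdh at -1.32 on both, and are not separate evidence. The log2 ratio of Phgdh to Atf4 (each as TPM + 1) averaged -0.15 ± 0.20 with Mdivi-1 at 96 h and -0.91 ± 0.49 without it (SD, n = 3 each), and -4.70 ± 0.31 with Mdivi-1 at 24 h and -3.38 ± 0.13 without it (SD, n = 2 each). For Shmt2 the ratio averaged -0.84 ± 0.28 with Mdivi-1 at 96 h and -1.47 ± 0.22 without it, and -3.15 ± 0.17 with Mdivi-1 at 24 h and -2.59 ± 0.10 without it. Phgdh, Shmt2 and Asns had ratios above those without Mdivi-1 at 96 h with no overlap, and all 3 had ratios below them at 24 h. Relative to Atf4, Psat1, Sesn2 and Mthfd2 were also lower with Mdivi-1 at 24 h without overlap, and Atf3, Ddit3 and Trib3 were higher. The share of all genes without overlap was not computed for such ratios. On TPM at 24 h, 67.3% of the 10728 genes averaging at least 1 TPM were lower without overlap and 4.05% higher. At 96 h 2.13% of all genes tested were higher on TPM. For Psat1 at 96 h the ratio averaged -1.85 ± 0.10 with Mdivi-1 and -1.77 ± 0.39 without it, and the ranges overlapped.

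**Figure D3:**
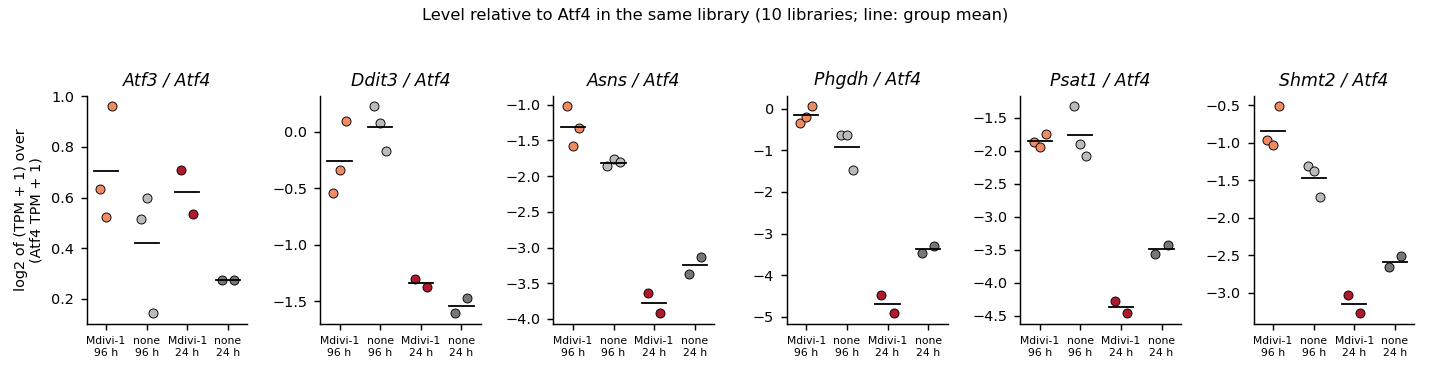
Log2 ratio of 6 of the genes to Atf4 in the same library (TPM + 1 on both sides; points are the 10 libraries used, lines the group means; vertical axes differ and do not start at 0). Asns, Phgdh and Shmt2 lie above the libraries without Mdivi-1 at 96 h and below them at 24 h, while Atf3 and Ddit3 lie above them at 24 h and overlap with them at 96 h.

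The order of the members by level, which TPM allows because it is per length, also differed by group. With Mdivi-1 at 96 h only Atf3 and Atf4 had a higher mean than Phgdh, which was at 15.8 ± 1.33 TPM, and its range met those of Atf4 and Ddit3. Without Mdivi-1 at 96 h it was at 7.84 ± 1.78 TPM, below Atf3, Ddit3 and Atf4 and with a range that met that of Mthfd2. In the 24 h libraries with Mdivi-1 it had the lowest mean of all 10, at 2.66 ± 0.92 TPM, with a range that met that of Psat1. Without Mdivi-1 at 24 h it was at 7.97 ± 0.28 TPM, between Asns and Psat1 and apart from both. Atf3 had the highest mean in each group and Atf4 came next in 3 of the 4. At 96 h without Mdivi-1 Ddit3 had the next mean, at 15.9 TPM against 15.5 TPM for Atf4. Their ranges met there, so the order of these 2 genes is not settled in that group.

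The change with time has a sign that rests on the scaling. On TPM, 9 of the 10 fell by 96 h without Mdivi-1, with Phgdh at -0.04 ± 0.21 (limma adjusted p = 0.857), where 46.9% of all genes fell, 36.3% rose and 83.2% were called in all. With Mdivi-1, 6 fell and Phgdh rose by 2.22 ± 0.21 (adjusted p = 3.36e-06), where 44% of all genes fell, 35.3% rose and 79.4% were called in all. Falls were the rule among genes with a mean of at least 5 TPM. Without Mdivi-1, 5170 of those 5813 genes fell and 534 rose, and 6 of the 7 members among them fell. With Mdivi-1, 5121 fell and 548 rose, and of the 7 members 4 fell and 1 rose. After background subtraction and rescaling over nuclear genes, limma called 3 members without Mdivi-1, all higher at 96 h: Phgdh at 2.17 ± 0.20, Ddit3 at 1.83 ± 0.14 and Atf3 at 0.56 ± 0.13, where 27.2% of genes were called higher, 25.8% lower and 53% in all. With Mdivi-1, 6 were called higher on that scale, led by Phgdh at 4.07 ± 0.20 and Shmt2 at 2.25 ± 0.26, where 27.4% of genes were, with 24.9% lower and 52.4% in all. The Phgdh difference over time in cells with Mdivi-1 was positive in all 19 alternatives, at 1.96 to 4.63. For Atf4, Atf3, Ddit3, Shmt2 and Mthfd2 the TPM and the subtracted scale gave opposite signs in both arms. For Asns, Psat1 and Phgdh they did so only without Mdivi-1. On TPM, Shmt2 with Mdivi-1 (-0.02) and Phgdh without it (-0.04) lay next to 0.

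Promoter sequence is given for the called members, Phgdh and Shmt2, and for the members with an ATF4-type element upstream. The windows are RefSeq's, 250 bases before to 50 after a start, for build GRCm38.p6, and all 10 genes were matched. The element searched for was TGATGNAA on both strands, the C/EBP-ATF response element, with CCAAT and TGACGTCA, the cyclic AMP response element, beside it. TGATGNAA was found in 3 of the 10 genes, Asns, Atf3 and Trib3, and in 3.97% of 32851 windows. In the runs below TGATGNAA is in capitals; Asns holds it as written and Atf3 in the reverse direction, at chr6:7693214-7693243 and chr1:191183425-191183454, both on the minus strand.
Asns: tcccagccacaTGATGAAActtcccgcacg
Atf3: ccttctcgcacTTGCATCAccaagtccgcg

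CCAAT was found in 7 of the 10, Phgdh and Psat1 among them, and in 37.4% of windows, and TGACGTCA in 0 of the 10 and 1.79% of windows. Neither called gene holds TGATGNAA in its window, which says only that these letters are not in it. The Phgdh run covers chr3:98339991-98340219 (minus strand) and ends where the first of its annotated transcripts begins; CCAAT, which begins at -193 counted from the start, is in capitals, and another that begins at -23 runs past the end of the sequence shown. The Shmt2 run covers chr10:127522445-127522694 (minus strand) and holds none of the 3 motifs.
Phgdh: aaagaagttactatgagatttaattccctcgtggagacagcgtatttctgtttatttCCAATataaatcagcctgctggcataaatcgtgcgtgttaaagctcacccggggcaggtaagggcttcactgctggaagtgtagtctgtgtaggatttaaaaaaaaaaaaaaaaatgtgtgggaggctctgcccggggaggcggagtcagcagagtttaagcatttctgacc
Shmt2: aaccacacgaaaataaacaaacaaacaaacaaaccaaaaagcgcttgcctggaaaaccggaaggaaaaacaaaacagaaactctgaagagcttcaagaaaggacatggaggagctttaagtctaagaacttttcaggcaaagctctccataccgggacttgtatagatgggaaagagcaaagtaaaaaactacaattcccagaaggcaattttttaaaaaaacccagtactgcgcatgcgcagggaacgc
The Phgdh window thus has a CCAAT in its distal part and another near the start, and the Shmt2 window, the other called gene's, has none.

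Around the 10 genes, the lists of the same pathways showed few calls, and the lists were chosen with earlier results of these data known. Of 25 other ATF4 targets tested, 3 rose with Mdivi-1 at 96 h and 0 fell, where 0.102% of all genes tested rose and 0.0408% fell. The median difference of the 25 was 0.17. Hmox1, heme oxygenase, rose to 201 ± 17.2 TPM with Mdivi-1, against 60.6 ± 3.49 TPM without it (1.71 ± 0.11, limma adjusted p = 0.000466). Sqstm1, the autophagy receptor p62, rose to 45.1 ± 3.18 TPM, against 20.6 ± 1.94 TPM without Mdivi-1 (1.09 ± 0.10, adjusted p = 0.00328). Ero1l, an oxidase of the endoplasmic reticulum, rose to 25.7 ± 1.44 TPM, against 14.1 ± 0.82 TPM without Mdivi-1 (0.82 ± 0.10, adjusted p = 0.0181). Hmox1 and Sqstm1 are also known targets of the oxidative stress factor NRF2. At 24 h limma called 0 of the 25. At an unadjusted p under 0.05, 5 were lower and 0 higher (median -0.27), where 6.04% of all genes tested were lower. Among tested genes averaging at least 1 TPM at 24 h, 11% were lower at that p and the median was -0.21. By limma the effect at 96 h exceeded that at 24 h for Hmox1 (1.92 ± 0.18, adjusted p = 0.00514) and Sqstm1 (1.15 ± 0.16, adjusted p = 0.0332). Of 21 alternatives, 18 kept the Hmox1 call at 96 h, 15 that of Sqstm1 and 7 that of Ero1l. The calls for the difference of effects held less often, in 11 of 19 alternatives for Hmox1 and in 6 of 19 for Sqstm1.

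**Figure D4:**
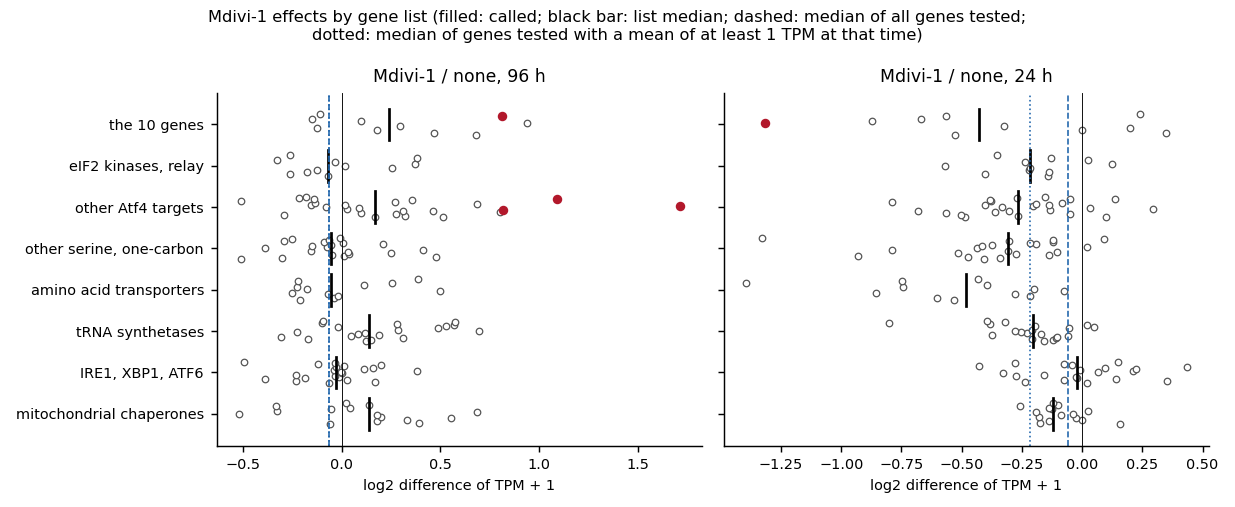
Log2 difference of TPM + 1, Mdivi-1 over none, for every tested gene of 8 lists at 96 h (left) and 24 h (right); filled points passed a limma adjusted p under 0.05, black bars are list medians and the dashed line the median of all genes tested (-0.06 in both), and the dotted line the median of those averaging at least 1 TPM at that time (-0.06 at 96 h, -0.21 at 24 h). Hmox1 (1.71) is the filled point farthest to the right at 96 h, Phgdh (-1.32) is the filled one at 24 h, and all 12 amino acid transporters lie left of 0 at 24 h.

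No gene of the other lists was called by limma in either Mdivi-1 comparison of the 10 libraries. Without library 3 of 96 h without Mdivi-1, 13 list genes were called at 96 h and 4 at 24 h. Of 12 amino acid transporters, 7 were lower at an unadjusted p under 0.05 at 24 h and 0 higher, with a list median of -0.48, where 6.04% of all genes tested, and 11% of those averaging at least 1 TPM at 24 h, were lower at that p. Slc38a2, a glutamine and alanine carrier induced by amino acid shortage, was at 10.3 ± 0.33 TPM with Mdivi-1 and 19.4 ± 0.56 TPM without it at 24 h (-0.85 ± 0.17, adjusted p = 0.0891). Slc3a2, the heavy chain of several carriers, was at 6.20 ± 0.44 TPM with Mdivi-1 and 4.10 ± 0.26 TPM without it at 96 h (0.50 ± 0.10, adjusted p = 0.108). Of 20 tRNA synthetases, 6 were higher and 1 lower at an unadjusted p under 0.05 at 96 h (median 0.14), where 2.11% of all genes tested were higher and 3.58% lower. Lars, leucyl-tRNA synthetase, was at 6.38 ± 0.79 TPM with Mdivi-1 and 3.54 ± 0.38 TPM without it (0.70 ± 0.13, adjusted p = 0.0955). Mitochondrial chaperones and proteases numbered 15, of which 3 were higher and 1 lower by that measure at 96 h; Hspa9, the mitochondrial heat shock protein mortalin, was at 24.6 ± 1.5 TPM with Mdivi-1 and 16.6 ± 3.13 TPM without it (0.56 ± 0.12, adjusted p = 0.180).

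The 21 other serine and one-carbon genes had medians of -0.05 at 96 h and -0.31 at 24 h. At an unadjusted p under 0.05 by limma there were 0 at 96 h and 3 at 24 h, all lower. At 24 h 6.04% of all genes tested were lower at that p, and 11% of those averaging at least 1 TPM at 24 h. Mat2a, which makes S-adenosylmethionine, was at 17.9 ± 0.03 TPM with Mdivi-1 and 26.0 ± 1.23 TPM without it at 24 h (-0.52 ± 0.29, adjusted p = 1). The 11 eIF2 kinases, phosphatase subunits and relay genes had medians of -0.07 at 96 h and -0.22 at 24 h. Of them 0 reached that unadjusted p at 96 h and 2 at 24 h, both lower, beside the same shares of genes. Ppp1r15a, the stress-induced phosphatase subunit GADD34, was at 4.82 ± 1.19 TPM with Mdivi-1 and 3.48 ± 1.03 TPM without it at 96 h (0.38 ± 0.20, adjusted p = 1). In the IRE1, XBP1 and ATF6 branches of the unfolded protein response, 21 genes had medians of -0.03 at 96 h and -0.02 at 24 h. Xbp1 itself was at 3.70 ± 0.08 TPM with Mdivi-1 and 5.61 ± 0.35 TPM without it at 96 h, lower in all 3 libraries (-0.49 ± 0.10, adjusted p = 0.157).

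In the 24 h libraries alone, where 21.2% of genes were called lower, limma called 7 of the 12 amino acid transporters and 7 of the 21 other serine and one-carbon genes, all lower with Mdivi-1. The transporters included Slc7a5 and Slc1a5, carriers of leucine and glutamine, and the enzymes included Mthfd1l and the methionine synthase Mtr. Of the other lists, 6 of 23 other ATF4 targets, 5 of 20 tRNA synthetases and 2 of 11 eIF2 kinase and relay genes were called lower. None of these was called higher, and 0 of the 15 mitochondrial chaperones and proteases were called. With median-of-ratios scaling of the same libraries, where 8.47% of genes were called lower and 3.53% higher, 5 of the 12 transporters and 3 of the 21 enzymes were called lower and 0 higher. Of 22 other ATF4 targets, 2 were called higher and 2 lower, and of 20 tRNA synthetases 1 higher and 1 lower. Of 11 eIF2 kinase and relay genes, and of 15 mitochondrial chaperones and proteases, 1 each was called higher and 0 lower. On that scale 5 of the 21 IRE1, XBP1 and ATF6 genes were called higher and 0 lower: Xbp1, the chaperones Hspa5 and Calr, the disulfide isomerase Pdia4, and Sdf2l1. In the unscaled fit 2 of the 21, Calr and Sdf2l1, were called higher and 1, Sec24d, lower.

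The genes whose pattern over the 10 libraries was nearest to a called member were found by the root mean square difference of centred log2 values, among 26207 genes on the rescaled table. For Shmt2 they were Hsph1 (0.132), Hsp90aa1 (0.227) and Phf10 (0.239), where the median over genes was 1.32. Hsph1, a heat shock co-chaperone, had means of 11.1 TPM with Mdivi-1 and 6.11 TPM without it at 96 h, and of 12.5 TPM with Mdivi-1 and 15.1 TPM without it at 24 h. Phgdh had no neighbour as close: Fosl1, an AP-1 subunit, lay at 0.378, Olfr692 at 0.408 and Syt7 at 0.419, where the median was 1.21. Olfr692 and Syt7 averaged at most 1.64 TPM in any group, within the range of the receptor background.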

How the data were processed

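Ribosome-depleted libraries of total RNA were made with a directional kit, per the labels' protocols. The deposited table holds TPM, computed by the authors, a share of transcripts per length that sums alike in every column and keeps no sequencing depth. Depth, and the precision it would give, are unknown. Which aligner, counter and annotation were used is not given in the sources used here. For the build, the submitters' processing notes name hg19, while the identifiers are mouse Ensembl ones, 99.5% of them in GENCODE M21.

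The 10 genes and the pathway lists were chosen with earlier results of these data known. limma 3.58.1 (R 4.3.3) with a trended prior was fitted to log2(TPM + 1) of 19631 genes with a mean of at least 1 TPM, in 10 libraries of 4 groups, with contrasts of group means and Benjamini-Hochberg adjustment over all genes. This scale understates changes of low genes. Both 24 h libraries numbered 3 were left out. The procedure was tested on simulated data. Named list genes were those called, or else the 2 of largest difference with a mean of at least 5 TPM. Nearest-pattern genes were the 3 closest to each called member.

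Alternatives were all 12 libraries, 1 time alone, each library left out, a pseudocount of 0.1, no filter, a minimum of 5 TPM, TPM rescaled over nuclear genes outside structured, mitochondrial and 13 satellite-like genes, the same after subtracting the median of 1438 receptor genes (pseudocount and minimum of 10), median-of-ratios scaling, no trend, and the replicate number as a block. Figures and sequence searches used Python 3.11.15, numpy 2.4.6, pandas 2.3.3 and matplotlib 3.10.9.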

Additional observations from a re-analysis of the deposited data

Results flagged for a closer look

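Phgdh was picked out because its Mdivi-1 effect differed between the 2 times by a test of the difference itself, the limma contrast of both effects, which gave 2.26 ± 0.29 (log2 of TPM + 1, SE, adjusted p = 0.0252). Every library with Mdivi-1 lay above those without it at 96 h and below them at 24 h. Shmt2 was picked out by the same test, at 1.38 ± 0.20 (adjusted p = 0.0351), with the same order of libraries. The Phgdh difference stayed between 1.90 and 2.61 and that of Shmt2 between 1.21 and 1.57 in all 19 alternatives, and they were called in 7 and 3 of them. The 96 h libraries had 7.0% to 11.3% of their TPM in genes outside the structured, mitochondrial and satellite-like classes, against 40.2% to 48.4% at 24 h, and time and this difference cannot be told apart.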

How the results depend on the processing

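The number of the 10 genes called with Mdivi-1 at 24 h was 1, and it was 6 in the 24 h libraries alone, 5 in these with median-of-ratios scaling (a setting added with the data known), and 0 with all 12 libraries, a pseudocount of 0.1, no filter, rescaling, background subtraction, median-of-ratios scaling of 10 libraries, no trend, or the block. At 96 h it was 1, and it was 2 with a minimum of 5 TPM or median-of-ratios scaling, and 0 with all 12 libraries, 96 h alone, no filter, rescaling, background subtraction (also in 96 h alone, added with the data known), no trend, or the block. For the difference of effects it was 2, and it was 1 with a pseudocount of 0.1 or no filter, and 0 with all 12 libraries, rescaling, background subtraction, median-of-ratios scaling, no trend, or the block. In the limma fits that called none, 0 to 6 members had an unadjusted p under 0.05 at 24 h, 0 to 5 at 96 h and 0 to 6 for the difference. With 1 library left out, the counts were 0 to 2 in each of these 3 comparisons. With the lone 24 h library that this leaves in a group, its spread is assumed to be that of the other groups. Genes called over the 7 pathway lists numbered 0 at 24 h, against 30 in the 24 h libraries alone, 21 in these with median-of-ratios scaling and 1 with a minimum of 5 TPM. They numbered 3 at 96 h, against 5 with a minimum of 5 TPM, 1 with no trend, with the replicate block or with background subtraction in 96 h alone, and 0 with all 12 libraries, 96 h alone or rescaling. For the difference they numbered 2, against 1 with no filter, background subtraction or the block, and 0 with all 12 libraries, rescaling, median-of-ratios scaling or no trend. With 1 library left out they numbered 0 to 4 at 24 h, 2 to 13 at 96 h and 0 to 3 for the difference. Over all genes, calls ranged from 0 to 2424 at 24 h (58 as reported), from 0 to 806 at 96 h (28) and from 0 to 84 for the difference (24).

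For time, 0 members were called with all 12 libraries in either arm. Without Mdivi-1 the count was 9, against 5 after rescaling, 3 after background subtraction and 5 with median-of-ratios scaling, and 8 to 9 with 1 library left out. With Mdivi-1 it was 7 with each library left out. These counts hold opposite directions. Without Mdivi-1, the 9 called on TPM were all lower at 96 h, and those called after rescaling, background subtraction or median-of-ratios scaling were all higher. With Mdivi-1, 6 were lower and 1 higher on TPM, and each of these scalings called 6, all higher. The all-gene median over time was -0.41 without Mdivi-1 and -0.12 with it on TPM, and 2.25 and 2.42 after rescaling, 1.46 and 1.52 with median-of-ratios scaling, and 0.25 and 0.31 after background subtraction.

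Whether the replicate numbers pair the samples is not settled here. Same-numbered libraries deviated from their group means with a correlation of -0.02 at 24 h and of -0.11, -0.02 and -0.24 at 96 h. Differently numbered ones ranged from -0.10 to 0.18 at 96 h. With 2 libraries per group at 24 h, both same-numbered pairs must give the same value and the crossed pairs its reverse. The 24 h value thus cannot show that the samples are unpaired, and both 24 h libraries left out carry the number 3. With the number as a block, members called numbered 0 at 24 h, 0 at 96 h, 0 for the difference, 9 for time without Mdivi-1 and 7 with it, with 1, 3 and 4 genes called in the Mdivi-1 comparisons and the difference.

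For Mdivi-1 at 96 h, the sign turned without library 2 of 96 h with Mdivi-1 for Trib3 (0.058), Sesn2 (0.11). For Mdivi-1 at 24 h, the sign turned without library 2 of 24 h with Mdivi-1 for Atf4 (0.042), and without library 1 of 24 h without Mdivi-1 for Atf4 (0.061), and after rescaling for Atf4 (0.19). It also turned after background subtraction for Atf4 (0.18), and with median-of-ratios scaling for Atf4 (0.24), and in 24 h alone with median-of-ratios scaling for Atf4 (0.24). It also turned with all 12 libraries for Ddit3 (-0.16). For the difference of effects, the sign turned with all 12 libraries for Ddit3 (0.038), and without library 2 of 24 h with Mdivi-1 for Atf3 (-0.0085), and with median-of-ratios scaling for Atf3 (-0.011). For time with Mdivi-1, the sign turned after background subtraction for Atf4 (0.41), Ddit3 (1.39), Atf3 (0.58), Shmt2 (2.25), Mthfd2 (1.11), and with median-of-ratios scaling for Atf4 (0.00601), Ddit3 (1.04), Atf3 (0.11), Trib3 (0.18), Sesn2 (0.23), Shmt2 (2.10), Mthfd2 (0.998), and with all 12 libraries for Ddit3 (0.36), Shmt2 (1.04), Mthfd2 (0.18). It also turned after rescaling for Ddit3 (0.92), Trib3 (0.086), Sesn2 (0.11), Shmt2 (2.16), Mthfd2 (0.92), and without library 2 of 24 h with Mdivi-1 for Asns (-0.053), and without library 1 of 96 h with Mdivi-1 for Asns (-0.058). It also turned without library 1 of 24 h with Mdivi-1 for Shmt2 (0.14). For time without Mdivi-1, the sign turned after background subtraction for Atf4 (0.33), Ddit3 (1.83), Atf3 (0.56), Asns (0.30), Phgdh (2.17), Psat1 (0.87), Shmt2 (0.69), Mthfd2 (0.34), and with all 12 libraries for Ddit3 (0.32), Phgdh (0.74), Psat1 (0.081), and after rescaling for Ddit3 (1.37), Asns (1.05), Trib3 (0.72), Phgdh (2.25), Psat1 (1.37), Shmt2 (0.77), Mthfd2 (0.37). It also turned with median-of-ratios scaling for Ddit3 (1.49), Atf3 (0.12), Asns (1.05), Trib3 (0.57), Phgdh (2.13), Psat1 (1.29), Shmt2 (0.85), Mthfd2 (0.51), and without library 3 of 96 h without Mdivi-1 for Phgdh (0.12), and with the replicate block for Phgdh (0.049). With 1 library left out, the values ranged at 24 h with Mdivi-1 from -0.062 to 0.061 for Atf4, at 96 h with Mdivi-1 from -0.21 to 0.058 for Trib3 and from -0.29 to 0.11 for Sesn2, for the difference from -0.0085 to 0.25 for Atf3, and over time from -0.18 to 0.12 for Phgdh without Mdivi-1, and from -0.19 to 0.14 for Shmt2 and from -0.058 to 0.32 for Asns with it. The cause was not tested.

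TPM keeps no depth, so counting error cannot be given. With 2 libraries per group at 24 h and background of 0.498 to 2.69 TPM at 96 h, Trib3, most Sesn2 and part of the Psat1, Asns, Mthfd2 and Shmt2 values at 96 h lie where background is not separable.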
